A study of Mus musculus with 2 samples.

Results

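The miR-29 family is made in the mouse from 4 miRNA genes in 2 clusters, Mir29a with Mir29b-1 on chromosome 6 and Mir29b-2 with Mir29c on chromosome 1. Their 4 entries were taken by gene identifier from tables of 2202 miRNA genes, and all 4 are listed in the tables of both libraries. The libraries hold RNA under 30 nt, taken from total RNA of the left cerebral cortex at postnatal day 4. The mice were males of the strain B6CASTF1/J, the hybrid that C57BL/6J and CAST/EiJ give in the first generation. Both libraries belong to 1 group, with no treated or control arm. The labels number them as biological replicates 1 and 2 and name separate males, yet both cite the same donor identifier, so whether they are separate animals is unclear and p-values measure only the difference between these libraries. They are called library 1 and library 2 here, by those replicate numbers.

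A miRNA guides an Argonaute protein to messenger RNAs that pair with its seed, the short stretch near its 5′ end. In the mouse brain miR-29 is known as a maturation-linked family, scarce in immature cortex and abundant in adult neurons and astrocytes. Its known targets include the DNA methyltransferase gene Dnmt3a, genes of cell death that it restrains in mature neurons, and collagen genes of the extracellular matrix. Only postnatal day 4 was analysed here, so no course over age can be given.

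The mature arms are shown first because the counts turn on how far the members can be told apart by sequence. All come from RefSeq on GRCm38.p6, where 4 of 4 members had an entry at the coordinates of the annotation. Capitals mark the seed, bases 2 to 8 from the 5′ end.
mmu-miR-29a-3p: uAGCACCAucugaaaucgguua
mmu-miR-29b-3p: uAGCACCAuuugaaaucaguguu
mmu-miR-29c-3p: uAGCACCAuuugaaaucgguua
mmu-miR-29a-5p: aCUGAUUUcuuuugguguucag
mmu-miR-29b-1-5p: gCUGGUUUcauauggugguuua
mmu-miR-29b-2-5p: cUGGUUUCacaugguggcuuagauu
mmu-miR-29c-5p: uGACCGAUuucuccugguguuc

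The 3p arms, known as the guide strands of this family, carried the same seed in all 4 genes, and no other mouse gene in the RefSeq set had a mature arm with it. Mir29b-1 and Mir29b-2 gave the same 3p arm letter for letter. miR-29a-3p and miR-29c-3p differed at a single base, C10U, counted from the 5′ end of miR-29a-3p. miR-29b-3p and miR-29c-3p shared their first 17 bases and differed at A18G, G21U and U22A, counted on miR-29b-3p. The 5p arms were less alike: each of the 4 genes had its own seed there, and the seed of miR-29b-2-5p was also found in Mir6338. Aligned with an offset of 1 base, the 5p arms of the Mir29b copies differed at U11C and U19C, counted on miR-29b-1-5p. miR-29b-3p ends in AGUGUU, a hexamer known from human cells to direct this miRNA to the nucleus. That hexamer was found in 12 of 1679 distinct mouse mature miRNAs (0.71%) and closed 2 of them.

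The hairpins of Mir29b-1 and Mir29b-2 shared an unbroken run of 25 bases, which held the whole of miR-29b-3p. Mir29b-1 and Mir29c shared 22 bases that began before the 3p arm and stopped inside it, and Mir29a shared at most 14 bases with another member. Of the 22-base windows of each hairpin, 5 of 50 in Mir29b-1, 4 of 60 in Mir29b-2, 1 of 67 in Mir29c and 0 of 67 in Mir29a occurred in another miRNA hairpin, and 0 occurred in an annotated transcript of a gene that overlaps none of the 4. A window shared with another hairpin was found in 104 of 1005 mouse hairpins (10.3%). In tables of this layout a read placed at several sites is given to no gene, so reads of miR-29b-3p with no base outside the shared run are not in the count of either Mir29b copy. The counts of Mir29b-1 and Mir29b-2 are therefore uncertain as measures of miR-29b, while Mir29a and Mir29c have 3p arms that differ from every other member's.

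**Figure D1:**
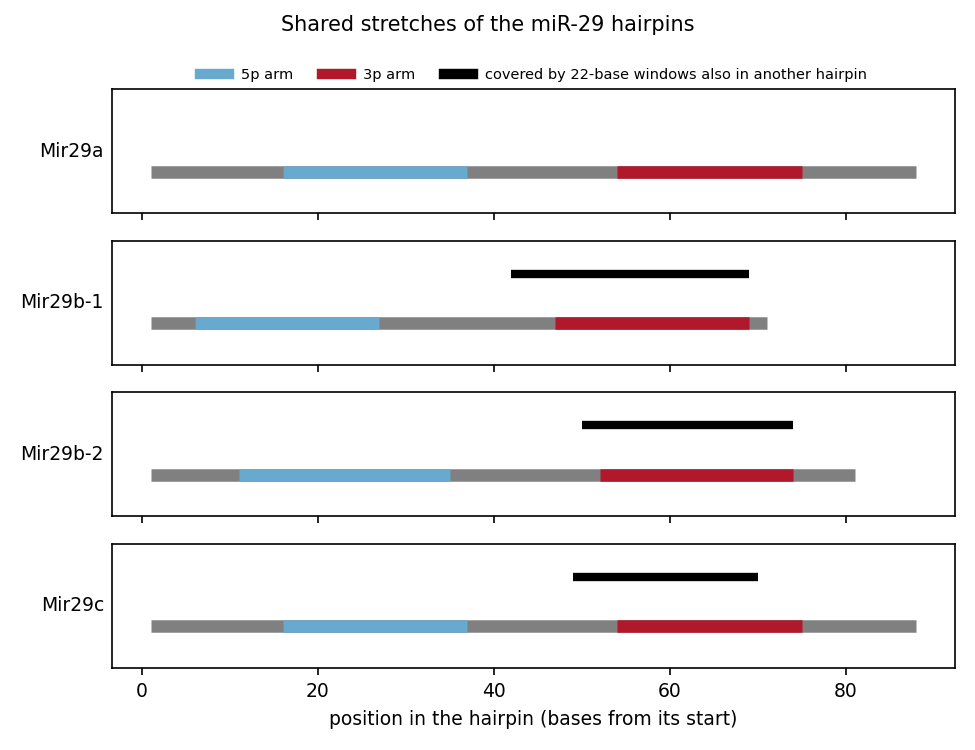
The 4 miR-29 hairpins drawn to scale from their first base (x axis, bases), with the 5p arm in light blue, the 3p arm in red and, as a black bar above, the stretch covered by 22-base windows that also occur in another miRNA hairpin. The black bar covers the whole 3p arm of Mir29b-1 and of Mir29b-2, ends inside the 3p arm of Mir29c and is missing from Mir29a.

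Each cluster has its Mir29b copy upstream of the other gene. On chromosome 6 (mm10) both genes lie on the minus strand, Mir29a at 31062660 to 31062747 and Mir29b-1 at 31063023 to 31063093, with 275 bases between them. Mir29b-1 overlaps the exon of the long noncoding RNA Gm27019 by 2 bases, and Mir29a overlaps no other annotated gene. On chromosome 1 both genes lie on the plus strand, Mir29b-2 at 195037040 to 195037120 and Mir29c at 195037547 to 195037634, with 426 bases between them. Both sit whole in an exon of the noncoding transcript A330023F24Rik and opposite an untranslated exon of Cd46, a gene of complement control. Further downstream, 4748 bases past Mir29c, lies the transcript model Gm37366. The strand opposite to the 4 miR-29 genes held 0 counts in both libraries, and their unstranded counts equalled their own-strand counts.

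Library 1 held 2999032 counts on the own strand of miRNA genes (29.9% of 10029659 reads), and library 2 held 3577964 (52.6% of 6800067). Reads with several possible sites, which belong to no gene, were 46.1% of library 1 and 39.8% of library 2. The libraries stood far apart, with a biological coefficient of variation of 1.24 (edgeR) over 463 tested genes. Library 2 went against its tissue label: 15 neuron-enriched genes held 4.27% of counts in library 1 and 0.132% in library 2, where 4 of them (the 3 Mir124a copies and Mir9-2) were at 0. Those 4 were already low in library 1, with 8, 3 and 1 counts for Mir124a-1, Mir124a-2 and Mir124a-3 and 7 for Mir9-2. Reads placed at several sites are in no gene count, so these counts may leave out reads that gene copies share. How many were left out was not tested, and the counts are uncertain as measures of miR-124 and miR-9. The 10 muscle genes held 0.00737% in library 1, with 6 at 0, and 15.7% in library 2, with 1 at 0. The levels and ratios of miR-29 are therefore given for each library alone. Means over the libraries appear only for the differences in level between neighbours and for a log2 ratio among the processing alternatives.

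By these counts, which leave out reads of miR-29b-3p inside the shared run, miR-29 was scarce in both libraries. Nearly all of its counts belonged to Mir29a and Mir29c. The 4 genes together had 702 counts in library 1, or 0.0234% of all miRNA counts (exact 95% binomial interval 0.0217 to 0.0252), and 497 counts in library 2, or 0.0139% (0.0127 to 0.0152). Those are 234 CPM (own-strand counts scaled to the library's own-strand total) in library 1 and 139 CPM in library 2. For scale, the 12 genes of the let-7 family, miRNAs known to rise as neural tissue matures, held 35.0% and 15.1% of counts. All intervals cover counting error only, and PCR copies cannot be told from separate molecules here.

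Mir29a, the leading member, had 461 counts in library 1 and 389 in library 2. That is 154 CPM (exact 95% Poisson interval 140 to 168) and 109 CPM (98.2 to 120.1). Scaled by total counts as here, its intervals in the libraries did not overlap. With TMM scaling (edgeR), Mir29a was instead lower in library 1, with a log2 ratio over library 2 of -0.90. It ranked 182 of 693 detected genes in library 1 and 174 of 604 in library 2, and 60.7% and 62.4% of the tested genes had fewer counts.

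Mir29c, the larger member of the chromosome 1 pair, had 212 counts in library 1 and 105 in library 2. These were 70.7 CPM (61.5 to 80.9) and 29.3 CPM (24.0 to 35.5). Its level was below that of Mir29a in each library with no overlap of intervals, and close to the middle of the tested genes, whose medians were 65.0 and 24.9 CPM. It ranked 223 in library 1 and 226 in library 2.

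Mir29b-1 had 13 counts in library 1 and 3 in library 2, or 4.33 CPM (2.31 to 7.41) in library 1 and 0.838 CPM (0.173 to 2.45) in library 2. Mir29b-2 had 16 counts in library 1, or 5.34 CPM (3.05 to 8.66), and 0 in library 2, which allows up to 0.838 CPM (3 counts). At these counts, no difference between the Mir29b copies was detectable in either library. Together they made up 4.13% of the family's counts in library 1 and 0.604% in library 2. The order of counted levels was thus Mir29a, Mir29c and then the Mir29b copies with no order between them. It stayed the same per base of hairpin, where Mir29a had 175 and Mir29c 80.3 CPM per 100 bases in library 1, and 124 and 33.3 in library 2.

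**Figure D2:**
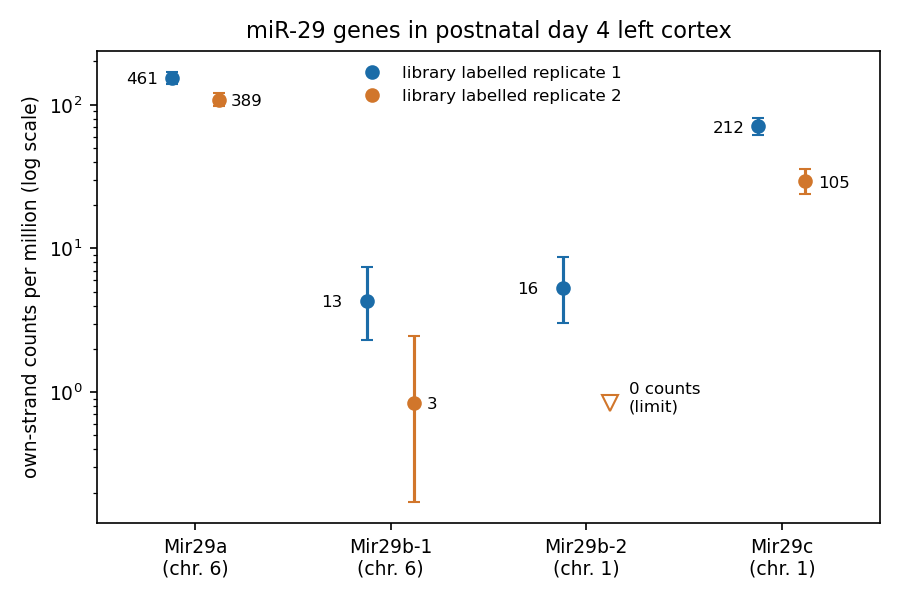
Own-strand CPM (log y axis) of the 4 miR-29 genes in library 1 (blue, left) and library 2 (orange, right), with exact 95% Poisson intervals and the raw count beside each point, and an open triangle at the limit of 3 counts for Mir29b-2 in library 2. Mir29a lies highest, Mir29c next, and the intervals of both stand clear of those of the Mir29b copies in each library.

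**Figure D3:**
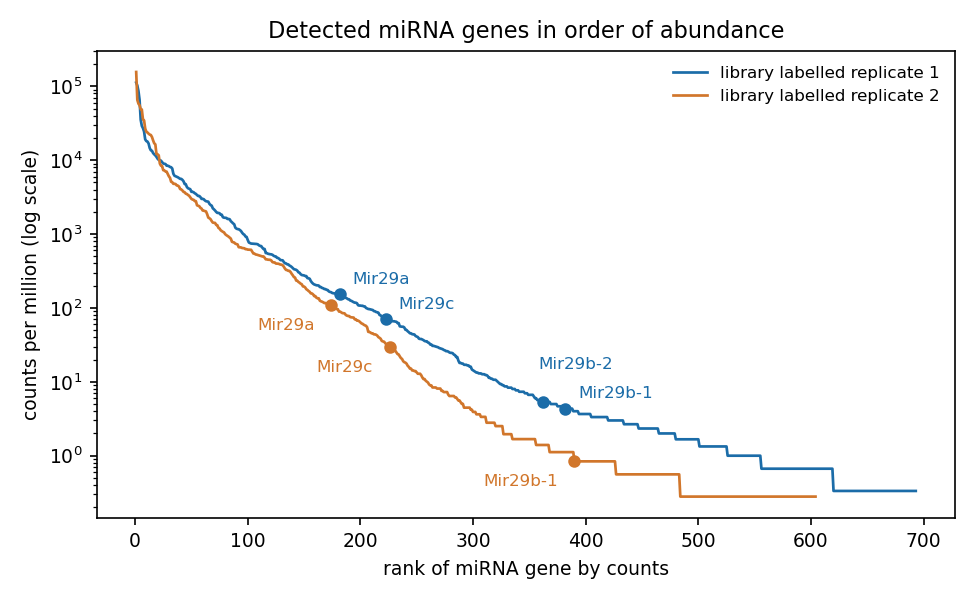
All detected miRNA genes of each library in order of abundance (x axis, rank; log y axis, CPM), with the miR-29 genes marked as points. Mir29a lies at ranks 182 and 174 and Mir29c at ranks 223 and 226, with Mir29b-1 and Mir29b-2 further to the right.

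The low counts of the Mir29b copies can be set beside other genes made in several copies. Only genes with a mature arm in the RefSeq set were compared, and the shared arm could be the guide strand or the other arm. Of 92 genes with a mature arm also made letter for letter from another gene, 53 (57.6%) had at least 10 counts summed. Of 926 genes with no such arm, 364 (39.3%) did. Among those tested, the median levels were 66.0 CPM for genes with a shared arm and 67.4 CPM for the others in library 1, and 15.1 and 32.1 CPM in library 2. Both Mir29b copies lay below these medians in each library. What share of miR-29b-3p reads was left out of the counts was not tested.

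The chromosome 6 pair exceeded the chromosome 1 pair in both libraries, by a larger ratio in library 2. In library 1 the chromosome 6 pair had 474 counts and the chromosome 1 pair 228, a ratio of 2.08 (exact 95% interval 1.77 to 2.45). In library 2 they had 392 and 105 counts, a ratio of 3.73 (3.00 to 4.68). The chromosome 6 pair thus held 67.5% of the family's counts (63.9 to 71.0) in library 1 and 78.9% (75.02 to 82.4) in library 2. Reads of miR-29b-3p with no base outside the shared run are in neither pair's count. The pair ratio is therefore a ratio of counts, nearly all from Mir29a and Mir29c, and the full output of each cluster was not measured. On the log2 scale the ratio was 1.06 in library 1 and 1.90 in library 2.

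This ratio within a library does not depend on how the libraries are scaled to each other. Set between the libraries, the chromosome 6 to chromosome 1 ratio was lower in library 1 than in library 2, with an exact conditional odds ratio of 0.557 (95% interval 0.422 to 0.733; log2 -0.84, -1.25 to -0.45). This contrast rests on counting error between single libraries and has no replicate check.

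Mir29a and Mir29c alone gave nearly the same contrast. Mir29a exceeded Mir29c 2.17-fold in library 1 (1.84 to 2.57) and 3.70-fold in library 2 (2.98 to 4.64), an odds ratio of 0.587 between the libraries (0.443 to 0.775; log2 -0.77). Both hairpins are 88 bases long and both 3p arms 22, so these ratios are the same per length. The Mir29b copies were in the ratio of 13 counts from chromosome 6 to 16 from chromosome 1 in library 1, 0.812 (0.359 to 1.802). In library 2 they had 3 counts and 0, too few to show a difference: the interval of the chromosome 6 share ran from 29.2% to 100%.

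**Figure D4:**
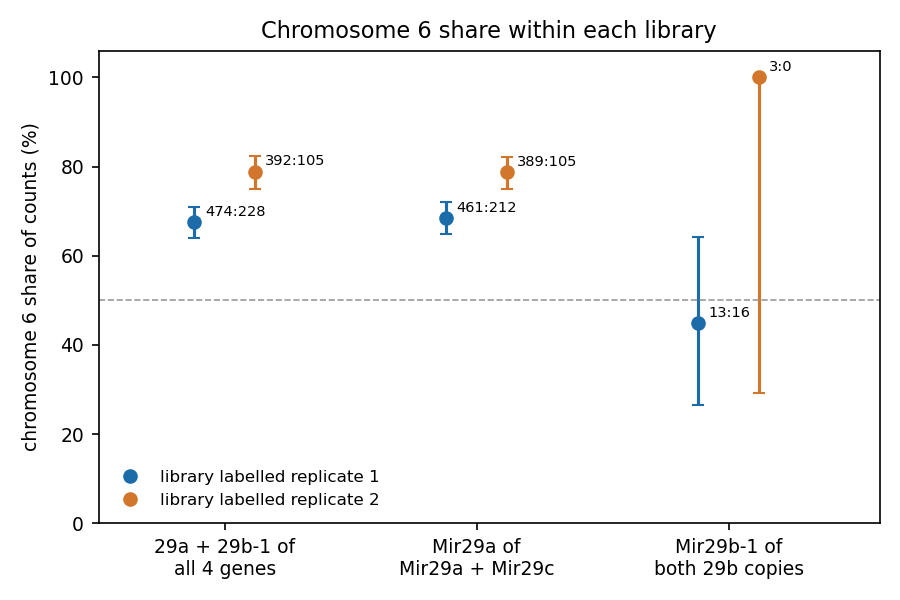
Share of counts that came from the chromosome 6 gene or pair (y axis, percent) within library 1 (blue, left) and library 2 (orange, right), with exact 95% binomial intervals and the counts of chromosome 6 to chromosome 1 beside each point; the dashed line marks equal counts. The share of the family's counts, which leave out reads of miR-29b-3p inside the shared run, is 67.5% in library 1 and 78.9% in library 2. Mir29a against Mir29c shows nearly the same values.

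Neighbours within a cluster differed widely in counted level. Reads of miR-29b-3p with no base outside the shared run are in neither Mir29b count. The gaps below are therefore gaps in counts, and their size for miR-29b itself was not tested. Mir29a exceeded Mir29b-1 35.5-fold in library 1 (20.5 to 67.1) and 130-fold in library 2 (44.0 to 632). Mir29c exceeded Mir29b-2 13.3-fold in library 1 (7.97 to 23.6), and at least 35.0-fold in library 2, where the count of 0 was set to 3. Its exact 95% lower limit in library 2, which also covers the counting error of Mir29c, was 28.0-fold. The mean levels of the neighbours differed by 5.95 (log2) on chromosome 6 and by 5.70 on chromosome 1, with 0.5 counts added to each. Over 122 other pairs of adjacent tested genes within 10 kb on a strand, the median difference in mean level was 2.56 and the upper quartile 5.21.

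The ratio of Mir29a to Mir29b-1 had an odds ratio of 0.274 between the libraries, with an interval (0.0497 to 1.006) that included 1. The ratio of Mir29c to Mir29b-2 had only an upper limit for that odds ratio, 0.538, because of the count of 0. With 0.5 counts added, the log2 ratios between libraries differed by 1.70 within the chromosome 6 pair and by 4.03 within the chromosome 1 pair. The other 122 adjacent pairs had a median of 1.37 and quartiles of 0.73 and 2.39. Mir29a and Mir29c, on separate chromosomes, differed by 0.77. Among all 43365 pairs of genes with at least 100 counts, the median was 3.32 and 87.3% differed by at least as much as Mir29a and Mir29c.

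Between the libraries, the direction for Mir29a and Mir29c depended on the scaling. Log2 ratios are library 1 over library 2 with a prior of 1 CPM, and the test is an exact two-sided binomial test, adjusted by Benjamini-Hochberg over all 463 genes that reached 10 counts in sum, as all 4 miR-29 genes did. Like the intervals, these p-values hold counting error only, with a single library on each side, and most tested genes passed. With TMM scaling (edgeR), 1 of 4 members was higher in library 1 (39.3% of all tested genes were), 1 was lower (40.6%) and 2 did not pass, where 79.9% of tested genes passed in either direction. With own-strand total counts, 4 of 4 were higher in library 1 (63.7% of all tested genes) and 0 lower (26.3%), where 90.1% passed. The share of higher genes among those that passed was 49.2% with TMM and 70.7% with total counts. The scalings differ by 1.40 (log2) for an abundant gene, and over the tested genes the median log2 ratio came to 0.26 under TMM and 1.35 under total counts.

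Mir29a had a log2 ratio of -0.90 with TMM (interval -1.10 to -0.71, no prior; adjusted p = 7.9e-19) and of 0.50 with total counts (0.30 to 0.70; adjusted p = 7.2e-07). Relative to the median of all tested genes it lay lower, by 1.15 with TMM and 0.86 with total counts. With total counts, 36.3% of tested genes had a lower ratio. Scaling shifts all genes alike apart from the prior, so these gaps are not separate checks. Mir29c had -0.13 with TMM (-0.48 to 0.22; adjusted p = 0.46) and 1.24 with total counts (0.92 to 1.62; adjusted p = 4.9e-14). It lay close to the median, at -0.39 relative to it with TMM and -0.11 with total counts, again not as separate checks.

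Mir29b-2 was higher in library 1 under both scalings, by at least 2.40-fold with TMM (adjusted p = 0.0065) and at least 6.36-fold with total counts (adjusted p = 5.1e-06), with the count of 0 set to 3 in library 2. The exact 95% lower limits of its log2 ratio, which also cover the counting error of its 16 counts, were 0.80 with TMM and 2.20 with total counts. Mir29b-1 had a log2 ratio of 0.63 with TMM (adjusted p = 0.45) and 1.54 with total counts (adjusted p = 0.0058). Its fold with total counts and no prior was 5.17, with a log2 interval of 0.51 to 4.82. Fewer cells of a type and less RNA per cell cannot be told apart in RNA from whole tissue.

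**Figure D5:**
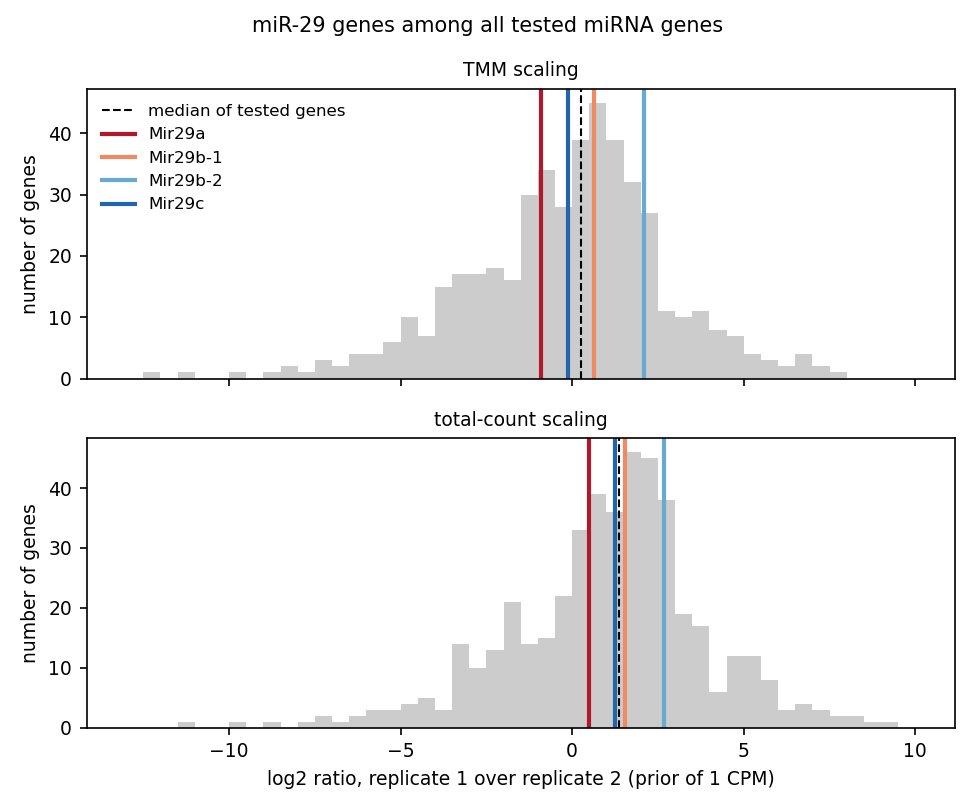
Histograms of the log2 ratio, library 1 over library 2 (x axis), of 463 tested miRNA genes under TMM scaling (top) and total-count scaling (bottom), with coloured lines for the miR-29 genes and a dashed line for the median of all tested genes. Mir29a lies left of the median and Mir29c close to it in both panels, while 0 falls to the right of Mir29a in the top panel and to its left in the bottom panel.

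Lists of genes of maturation and of cell types that could hold miR-29 are given beside these values, to be read against the shares of all tested genes that were higher (39.3% with TMM, 63.7% with total counts) or lower (40.6% and 26.3%) in library 1. In the let-7 family 5 of 12 tested genes were higher and 7 lower in library 1 with TMM, and 11 and 1 with total counts, with median log2 ratios of -0.43 and 0.97. Its top member Mirlet7i had 336931 counts in library 1 and 234367 in library 2, a log2 ratio of -0.63 under TMM and of 0.78 under total counts. Neuron-enriched genes were higher in library 1 in 10 of 11 tested with TMM and 11 with total counts (0 lower under both; medians 3.42 and 4.79). Among them Mir128-1, a neuronal miRNA, had 53592 and 2623 counts. Genes linked to glia other than miR-29 were lower in library 1, 8 of 10 with TMM (1 higher) and 6 with total counts (3 higher), with medians of -2.24 and -0.84. Mir23a had 17170 counts in library 1 and 96042 in library 2, and Mir21a, known from reactive astrocytes, had 6694 and 12459. Mir338 of the same list, named after its values were seen, had 1491 and 1610 counts. Under TMM it lay lower in library 1, at -1.26 (log2). Total counts instead put Mir338 slightly higher there, at 0.14. Mir219a-1 and Mir219a-2, known from oligodendrocytes and named after their values were seen, had 39 and 314 counts in library 1 and 10 and 3 in library 2. Their log2 ratios were 0.70 and 4.79 with TMM, under which a single gene of the list passed as higher, and 1.88 and 5.85 with total counts.

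Muscle genes were lower in library 1 in 7 of 7 tested under both scalings (medians -7.15 with TMM and -6.31 with total counts), led by Mir206 with 212 and 559242 counts. The same held for 6 of 6 Hox cluster genes (-7.81 and -6.53), with Mir196b at 40 and 42961 counts. Connective tissue genes were lower in 3 of 3 tested (-6.16 and -5.36), with Mir214, known from mesenchyme, at 347 and 17140 counts. Vascular genes were lower in 3 of 3 (-2.33 and -0.93), with endothelial Mir126a at 35984 and 81797 counts, and red blood cell genes in 2 of 2 (-2.96 and -1.68), with Mir451a at 34 and 196. The part of these other cells in the miR-29 values was not tested.

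By ratio between the libraries, with total counts and no prior, the genes nearest to Mir29a among 293 others with at least 100 counts were Mir421, Mirlet7a-2, Mir666, Mir340 and Mirlet7f-1. Their log2 ratios lay between 0.45 and 0.53, beside 0.50 for Mir29a. Mirlet7a-2, a let-7 gene, also had like counts, 412 and 344, which leave out any reads placed at several sites. Nearest to Mir29c, at 1.27, were Mir652, Mir146, Mir1981, Mir92-1 and Mir200a, between 1.22 and 1.35. Mir146, an inflammation-linked miRNA, had 1592 and 786 counts. The likeness rests on a single ratio of 2 libraries.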

How the data were processed

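Small RNA libraries of 1 group (2 libraries) were analysed. The deposited values are raw read counts per miRNA hairpin gene, 1 table per library, with mature arms not separated. Build mm10 and annotation GENCODE M21 are named in the text deposited beside the tables. Which aligner and counter were run is not given in the sources used here. Each table has the layout of STAR gene counts. The own-strand column was used, and the 4 entries that name no gene stayed out of library sizes (unplaced reads 18.4% and 6.11%, reads outside miRNA genes 5.55% and 1.47%). All 2202 identifiers matched.

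An exact binomial test per gene compared the libraries over all genes with at least 10 counts summed, with TMM scaling, Benjamini-Hochberg adjustment and a threshold of 0.05. It was tested on simulated data with counting error alone and total-count scaling. That simulation covers neither TMM scaling nor the wide spread between these libraries. The edgeR quasi-likelihood test was not run, as there are no replicates within either side. Ratios within a library carry exact binomial intervals, and their contrast between libraries an exact conditional odds ratio. A count of 0 was set to 3 counts for bounds. Folds and intervals carry no prior.

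Named genes were the miR-29 genes, up to 3 members of each list by mean CPM, the 5 genes nearest in ratio to Mir29a and to Mir29c, and annotated neighbours within 10 kb. Genes at 0 in a list, Mir219a-1, Mir219a-2 and Mir338 were named after their values were seen. The members and lists were chosen with earlier results of these data known. Of the red blood cell list, 2 of 4 genes had a match by symbol. Hairpin windows were compared with other hairpins and annotated transcripts; a genome sequence was not used here. Alternatives were total counts, DESeq2 size factors, the unstranded column, other count filters, a prior of 0.1 CPM, a negative binomial test (coefficient of variation 0.1), removal of Mir206, each library alone, Mir29a over Mir29c alone, means of log2(CPM + 1) and other cluster distances. Tests per gene and scaling were run in R 4.3.3 with edgeR 4.0.16 and DESeq2 1.42.0, intervals and ratios with scipy 1.17.1 and pandas 2.3.3 in Python 3.11.15 (numpy 2.4.6), and plots with matplotlib 3.10.9.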

Additional observations from a re-analysis of the deposited data

Results flagged for a closer look

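Reads placed at several genomic sites lie outside the gene counts and were used in no comparison. They made up 46.1% of reads in library 1 and 39.8% in library 2, and there are no control samples to set them against. The tables do not say which miRNAs these reads belong to, and their part in the low counts of the Mir29b copies was not tested.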

How the results depend on the processing

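With total counts in place of TMM, the log2 ratio of Mir29a turned to 0.50 and that of Mir29c to 1.24, and Mir29b-1 passed the test at 1.54; the scaling itself shifts every gene. With only genes of at least 100 counts, Mir29c stood at 0.29 (adjusted p = 0.097), Mir29a at -0.47 in place of -0.90, and Mir29b-1 and Mir29b-2 were not tested. No other alternative listed under the processing changed a direction or a call of the 4 genes. Genes that differed between the libraries numbered 370 of 463 tested. They were 336 of 435 in the unstranded column, 345 of 463 by the negative binomial test and 364 of 463 with DESeq2 size factors. With total counts they were 417 of 463, with at least 100 counts 278 of 295, and with no filter on low counts 379 of 758. Those at least 4-fold apart numbered 226, a limit chosen after seeing the data. With each library alone, the miR-29 share was 0.0139% to 0.0234% and the log2 ratio of the chromosome 6 pair over the chromosome 1 pair 1.06 to 1.90; the contrast of that ratio between the libraries needs both. It was -0.77 for Mir29a over Mir29c alone, which hold nearly all of the same counts, and -0.94 for means of log2(CPM + 1). Those means lowered the log2 ratio itself, averaged over the libraries, to 0.90, against 1.48. The unstranded column gave -0.84 by construction, because the counts of the 4 genes are the same in it. No paired analysis was possible because there is only 1 group. Mir29b-1 and Mir29b-2 had at most 16 counts in a library, and reads of miR-29b-3p inside their shared run are in neither count.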
